A study of Drosophila melanogaster with 12 samples.

Results

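Ovaries with a germline knockdown (GKD) of wde were compared with ovaries with a germline knockdown of Nup154. The genotype labels place 4 of the 12 libraries of the series in this comparison, wde GKD 1 and 2 and Nup154 GKD 1 and 2. All are poly(A) mRNA libraries of Drosophila melanogaster ovaries, dissected 1 to 3 days after eclosion. The design text names the Nup154 knockdown as the control for the developmental defect. Running numbers in the titles are 3 and 4 for the first set and 21 and 22 for the second, and the labels do not say what they count. The sources used here do not give the driver or RNAi lines of the knockdown sets, the number of flies behind a library, or whether replicates came from separate crosses. A p-value therefore measures the spread between libraries, and that spread may be technical. The other 8 libraries enter the fit and share its estimate of spread, 2 each of SETDB1 GKD (RNAi of egg by the titles), young controls with NGVP16 in the title, young controls with virgin in the title, and adult controls. Their tissue and age labels are the same as those of the knockdowns compared. The titles of the virgin pair differ, with DcrVirgin in the first and VIRGIN in the second, so the pair may not be replicates of the same genotype. The adult controls were shallow, with 471770 and 682565 counts, and without them the genes called were 94 higher and 55 lower in place of 108 and 72. Whole ovaries were used, so somatic cells that keep both genes contribute to every library.

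Wde is the fly cofactor of SETDB1, the enzyme encoded by egg that places the silencing mark H3K9me3 on histone H3. In the female germ line this pathway silences genes of early germ cells and of the male program as the oocyte is made. Nup154 is a scaffold protein of the nuclear pore, the channel through the nuclear envelope. The comparison asks what ovaries depleted of the silencing cofactor show beyond the developmental control.

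Total counts were 10242055 and 10365789 in the wde GKD libraries and 11508672 and 11813990 in the Nup154 GKD libraries. Levels are CPM, a library's counts scaled to a common total by TMM, in the order replicate 1 and replicate 2. Fold changes are log2 values for wde GKD over Nup154 GKD with a standard error (SE). They come from edgeR's quasi-likelihood test on all 12 libraries, with p-values adjusted by Benjamini-Hochberg over 10790 genes and a threshold of 0.05. The squared difference of the replicates, relative to sampling noise, had a median over genes of 14.6 in wde GKD and 5.42 in Nup154 GKD, so the wde GKD libraries were the less alike. Both knockdowns held ovary RNA: of 30 germ cell and early oogenesis genes tested, none was at 0 counts in any of the 4 libraries, and tj, a transcription factor of the ovarian soma, was at 172 and 264 CPM in wde GKD and 200 and 230 CPM in Nup154 GKD.

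None of the 3 genes named by the knockdowns passed the test between the sets. The wde transcript was at 65.8 and 83.5 CPM in wde GKD and at 81.1 and 81.0 CPM in Nup154 GKD (log2 fold change -0.12 ± 0.44, adjusted p = 0.929). The Nup154 transcript was at 64.1 and 97.9 CPM in wde GKD and at 72.2 and 67.7 CPM in Nup154 GKD (0.21 ± 0.33, adjusted p = 0.789). The egg transcript was at 41.4 and 42.7 CPM against 50.9 and 51.6 CPM (-0.29 ± 0.35, adjusted p = 0.729). Both wde GKD libraries were below both Nup154 GKD libraries for egg, while the wde and Nup154 values of the sets overlapped, and neither transcript checks the label of its own knockdown in RNA from whole ovaries.

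Between the knockdowns 180 of 10790 genes passed the test (1.67%), with 108 higher in wde GKD (1%) and 72 lower (0.667%). All 180 differed at least 2-fold, and in each the wde GKD libraries lay on one side of the Nup154 GKD libraries. Over all genes tested, both wde GKD libraries lay above both Nup154 GKD libraries in 28.5% and below them in 35.8%. The genes that were higher had a median log2 fold change of 3.43 and those that were lower one of -2.76, against -0.04 over all genes. Of the 180, 86 are protein-coding genes with a name and 88 have only an annotation number or no name. The number of calls rested on the Nup154 GKD replicates and on the control libraries that share the estimate of spread. Without Nup154 GKD 1 or without Nup154 GKD 2 edgeR called 0 genes, with 1051 and 1065 genes at an unadjusted p under 0.05, while DESeq2 called 233 and 238 genes. The calls of every gene described below were thus lost by edgeR without either of those libraries. The number of calls by edgeR was 19 without wde GKD 1, with 12 of the 108 and 4 of the 72 among them, and 54 without wde GKD 2, with 39 of the 108 and 10 of the 72 among them. Of the genes named by size of change, Fbp1, Lsp1gamma, ninaD, Sgp, stol and nAChRalpha3 were called in both of those fits. Without NGVP16 control 1 it was 653 and without NGVP16 control 2 it was 806. A fit of the 6 knockdown libraries called 1007 genes (9.33%), of which 463 were higher (4.29%) and 544 lower (5.04%), among them 94 of the 108 and 62 of the 72. A fit of the 4 libraries alone called 1922 genes (17.8%). The split into higher and lower was 222 and 242 once a trend on exon length was removed, and 10 and 3 with libraries scaled to their ribosomal protein genes.

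**Figure D1:**
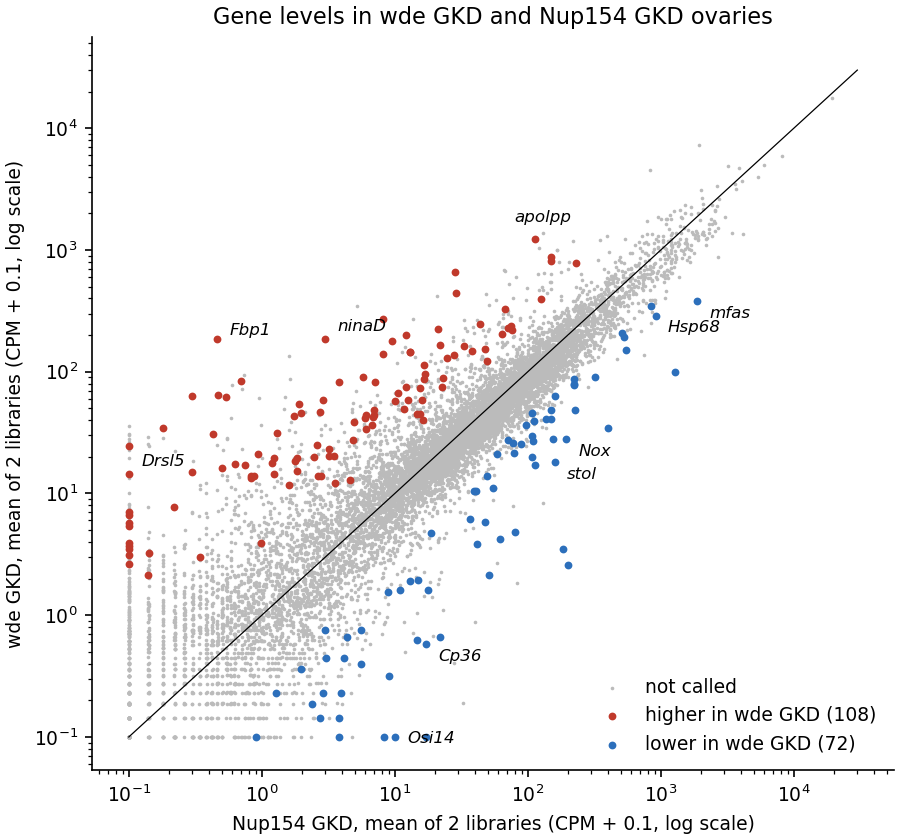
Mean level of each of 10790 genes in Nup154 GKD (horizontal) and wde GKD (vertical), each the mean of 2 libraries in CPM + 0.1 on log axes, with the 108 genes called higher in red, the 72 called lower in blue and equal levels on the diagonal. Fbp1, ninaD and apolpp lie far above the diagonal, and mfas, Nox and stol lie below it among well expressed genes.

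Of the 15 largest rises in wde GKD 4 were in the list of genes of the fat body, the fly's organ for fat storage and for making blood (haemolymph) proteins. Fbp1, which encodes the receptor that takes up storage proteins (FBgn0000639, chromosome arm 3L, 14094589 to 14098053, minus strand, dm6), was at 290 and 78.2 CPM in wde GKD and at 0.41 and 0.318 CPM in Nup154 GKD. Its log2 fold change was 8.94 ± 0.97 (adjusted p = 0.00434). The storage protein gene Lsp1gamma was at 105 and 21.6 CPM against 0.164 and 0.239 CPM (8.20 ± 1.19, adjusted p = 0.0149). Fbp2, another fat body protein, was at 101 and 26.8 CPM against 0.738 and 0 CPM (7.40 ± 1.2, adjusted p = 0.0286). In all 3 genes wde GKD 1 held over 3 times as much as wde GKD 2, and both stood far above the Nup154 GKD libraries.

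The same 3 genes were also read in the other sets. The NGVP16 controls, young flies whose titles name the NGVP16 driver, held 69.8 and 99.5 CPM of Fbp1, and SETDB1 GKD held 212 and 68.2 CPM. Lsp1gamma was at 15.3 and 27.7 CPM in the NGVP16 controls and at 52.0 and 27.7 CPM in SETDB1 GKD. Fbp2 was at 32.4 and 41.4 CPM in the NGVP16 controls and at 59.0 and 20.3 CPM in SETDB1 GKD. The virgin controls were far lower, with 2.71 and 4.75 CPM of Fbp1, 1.36 and 7.49 CPM of Lsp1gamma and 1.25 and 2.45 CPM of Fbp2. In the adult controls Fbp1 and Fbp2 were at 0 counts and Lsp1gamma was at 2.40 and 5.90 CPM. Those libraries were shallow and held only 2 counts in all of the ribosomal protein gene RpL4, so they give no usable level for these genes. The NGVP16 and virgin controls thus differed widely for these genes, and the virgin controls were below both wde GKD libraries for all 3.

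Of 26 fat body genes tested, 5 rose (19.2%, against 1% of all genes) and none fell. A log2 fold change above 0 was seen in 22, against 5021 of all 10790 genes, and the list's median was 0.94. The other 2 that rose were apolpp and Obp99b. The lipoprotein precursor gene apolpp, whose product carries lipid in the blood, was at 956 and 1510 CPM in wde GKD and at 122 and 106 CPM in Nup154 GKD (3.43 ± 0.66, adjusted p = 0.0328). Here wde GKD stood above SETDB1 GKD, with 711 and 240 CPM, and above the NGVP16 controls, with 31.1 and 69.3 CPM. Obp99b, an odorant-binding protein gene, was at 72.9 and 19.2 CPM against 1.97 and 1.75 CPM (4.62 ± 0.91, adjusted p = 0.0402). The storage protein genes Lsp1alpha, Lsp1beta and Lsp2 had log2 fold changes of 3.42, 1.70 and 0.92 that did not pass the test. Yp1, Yp2 and Yp3, the yolk protein genes that fat body and follicle cells both express, had log2 fold changes of 0.81, 0.97 and 0.81 that did not pass either. The summed level of the 26 genes was 7670 and 9720 CPM in wde GKD and 4600 and 4580 CPM in Nup154 GKD. Only Fbp2, in Nup154 GKD 2, was at 0 counts. The 5 calls became 2 without wde GKD 1, 4 without wde GKD 2, and 0 without either Nup154 GKD library. They became 3 without the adult pair. The fit of the 6 knockdown libraries called 5 higher and 2 lower, and removal of the length trend gave 4 higher and 2 lower. In bulk RNA, fewer fat body cells and less RNA per cell cannot be told apart, and the part of attached fat body tissue in these values was not tested.

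Other genes among the largest rises, and CCHa2, are described together without a list that joins them. ninaD, a scavenger receptor for carotenoid uptake, was at 294 and 77.6 CPM in wde GKD and at 3.12 and 2.63 CPM in Nup154 GKD (6.01 ± 0.70, adjusted p = 0.00434). Obp99c, another odorant-binding protein gene, was at 411 and 132 CPM against 6.81 and 9.23 CPM (5.08 ± 0.91, adjusted p = 0.0357). Both were more than 10 times higher in either wde GKD library than in either Nup154 GKD library. CCHa2, a nutrient-dependent peptide hormone of the fat body and gut, was at 209 and 72.5 CPM against 7.96 and 8.27 CPM (4.12 ± 0.59, adjusted p = 0.0108). The C-type lectin gene lectin-28C was at 71.8 and 45.6 CPM against 3.61 and 1.99 CPM (4.39 ± 0.76, adjusted p = 0.0264). In all 4 genes both Nup154 GKD libraries were below 10 CPM. Sgp was at 25.3 and 8.49 CPM against 0.41 and 0.875 CPM (4.69 ± 0.62, adjusted p = 0.00731). In each of these 5 genes wde GKD 1 was the highest of the 4 libraries. Across the 108 genes that were higher, wde GKD 1 lay above wde GKD 2 in 86, against 5046 of all 10790 genes, and Nup154 GKD 1 lay above Nup154 GKD 2 in 44. The 2 wde GKD libraries differed by more than 2-fold in 35 of the 108 on the CPM + 1 scale, and the Nup154 GKD libraries in 1.

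Peptides of the humoral immune response moved in both directions. Drsl5, a drosomycin-like peptide gene, was at 22.4 and 6.10 CPM in wde GKD and at 0 counts in both Nup154 GKD libraries, which makes it at least 119-fold higher if 3 counts are allowed for that set (adjusted p = 0.0314). TotA, a stress-induced blood peptide, was at 17.4 and 12.6 CPM against 0.082 and 0.318 CPM (6.13 ± 1.02, adjusted p = 0.0234). TotA had 5 counts in all in the Nup154 GKD libraries against 345 in wde GKD. Among the Bomanins, short peptides induced by Toll signalling, BomS6 was at 88.3 and 35.8 CPM against 0.246 and 0.637 CPM (7.09 ± 1.07, adjusted p = 0.0222). BomT2 rose by 4.67 ± 0.90 (adjusted p = 0.0357) and BomBc2 by 4.00 ± 0.66 (adjusted p = 0.0186). These 3 Bomanin genes lie side by side on chromosome arm 2R, between 18384824 and 18390629 in dm6, in a family of similar short genes whose reads the counting may have split. Def, the antimicrobial peptide Defensin, went the other way, with 6.33 and 1.86 CPM against 59.1 and 64.5 CPM (-3.91 ± 0.82, adjusted p = 0.0483). In the fixed immunity list 2 of 38 genes rose and 1 fell, against 1% and 0.667% of all genes, with a median log2 fold change of 0.38. Within wde GKD, replicate 1 was higher for 32 of those 38, and the median became -0.67 without wde GKD 1. None of the 3 immunity calls was made without wde GKD 1 or without wde GKD 2. Without the adult pair, with DESeq2 size factors or with upper quartile scaling, 2 genes of the list rose and 0 fell.

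Cytochromes P450, enzymes that oxidise xenobiotics and hormones, supplied 5 of the genes that were higher, of 75 tested (6.67%, against 1% of all genes), and none that was lower. They were grouped by symbol after their values were seen, and their median log2 fold change was 0.22. Cyp6a8 was at 62.3 and 105 CPM in wde GKD and at 0.164 and 1.03 CPM in Nup154 GKD (7.09 ± 1.17, adjusted p = 0.0338). Cyp4e3 was at 104 and 60.4 CPM against 4.02 and 3.34 CPM (4.47 ± 0.69, adjusted p = 0.0175). Cyp309a2 was at 18.1 and 23.8 CPM against 0.574 and 1.11 CPM (4.61 ± 0.70, adjusted p = 0.0169). Cyp6a8 and Cyp309a2 were highest in wde GKD 2, unlike the storage protein genes. SETDB1 GKD held only 0.905 and 2.19 CPM of Cyp6a8 and 5.79 and 7.14 CPM of Cyp4e3, near the Nup154 GKD level, while the NGVP16 controls held 15.9 and 2.50 CPM of Cyp6a8 and 5.65 and 3.50 CPM of Cyp4e3. Cyp4e2 rose by 1.53 ± 0.32 and Cyp313b1 by 1.87 ± 0.35. In the list of 43 glutathione and detoxification genes 2 rose, none fell, and the median log2 fold change was 0.04.

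**Figure D2:**
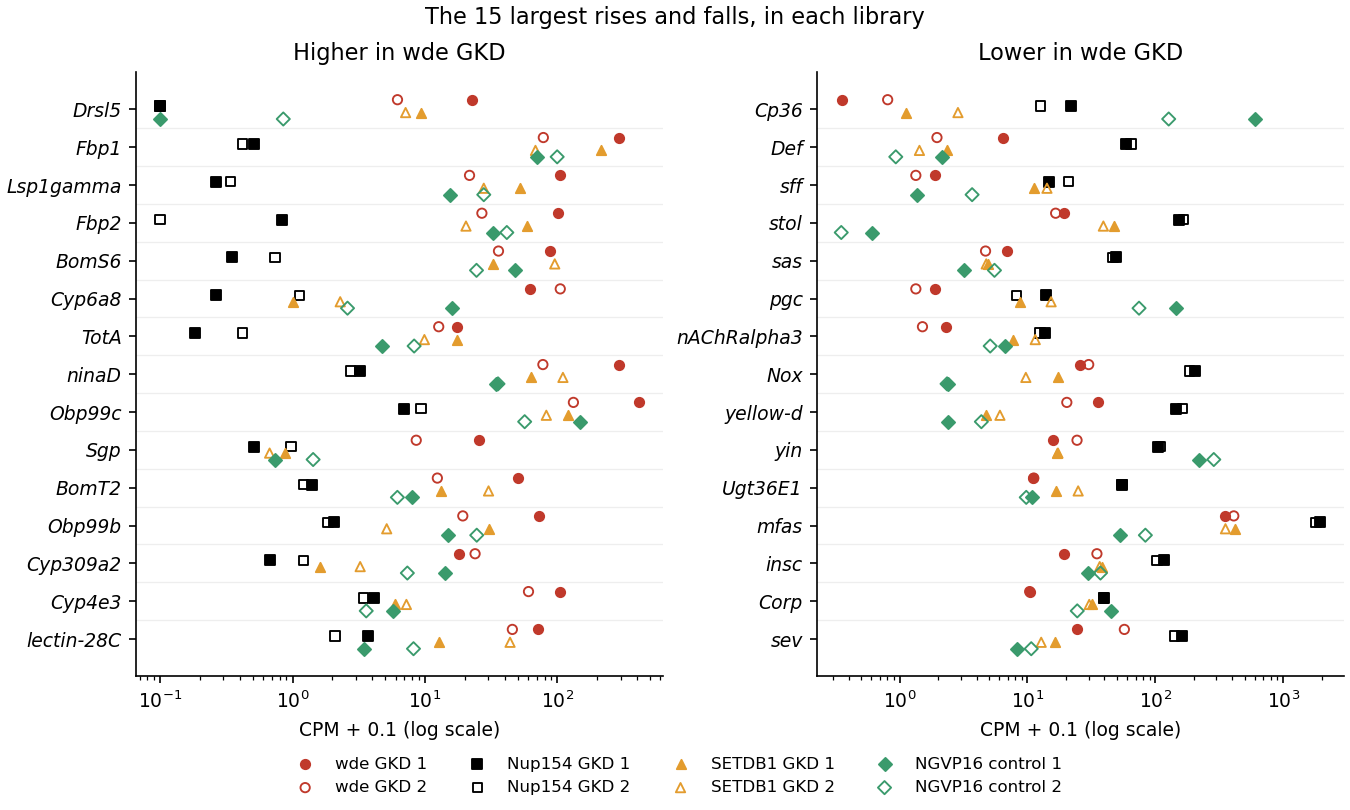
Level of the 15 largest rises (left) and 15 largest falls (right) by log2 fold change, in CPM + 0.1 on a log axis, with filled symbols for replicate 1 and open symbols for replicate 2 of wde GKD, Nup154 GKD, SETDB1 GKD and the NGVP16 controls. For Fbp1, Lsp1gamma, Fbp2, ninaD and Obp99c the Nup154 GKD libraries lie below the other 6 libraries, and for stol, Nox, mfas and Def they lie above the other 6.

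Copies of housekeeping genes that germ cells express were described as a list of 19 tested genes, chosen with earlier results in view. SETDB1 is known to silence some of them as the oocyte is made. The list as a whole summed to 1580 and 1640 CPM in SETDB1 GKD and to 3640 and 1650 CPM in the NGVP16 controls. Of the 19, 1 passed the test (5.26%, against 1.67% of all genes). This was ATPsynepsilonL, a copy of an ATP synthase subunit gene (FBgn0051477, chromosome arm 3R, 10121773 to 10122320, plus strand, dm6). It was at 15.7 and 34.3 CPM in wde GKD, 3.28 and 1.75 CPM in Nup154 GKD, 46 and 55.5 CPM in SETDB1 GKD, and 0 and 0.417 CPM in the NGVP16 controls. Its log2 fold change was 3.31 ± 0.68 (adjusted p = 0.0437). The wde GKD libraries were above Nup154 GKD and below SETDB1 GKD. The list's median log2 fold change was 0.30 and became -0.11 without wde GKD 1 and -0.06 without Nup154 GKD 2. The same list held 4 genes higher and 1 lower in the fit of the 6 knockdown libraries, and 0 calls without any 1 of the wde GKD, Nup154 GKD or SETDB1 GKD libraries in the fit of 12.

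gNacalpha, a germline copy of a nascent polypeptide chaperone subunit, was at 67.8 and 100 CPM in wde GKD, 14.2 and 21.2 CPM in Nup154 GKD, 194 and 185 CPM in SETDB1 GKD and 2.18 and 0.417 CPM in the NGVP16 controls. It missed the threshold with all 12 libraries (2.25 ± 0.49, adjusted p = 0.0539) and passed it with the 6 knockdown libraries (adjusted p = 0.0126). The ribosomal protein copy RpL22-like was at 17.4 and 11.6 CPM in wde GKD and 2.95 and 5.41 CPM in Nup154 GKD (1.79 ± 0.50, adjusted p = 0.11 and, with the knockdowns alone, 0.0457), against 187 and 124 CPM in SETDB1 GKD. RpL37-2 was at 4.87 and 2.56 CPM against 0.82 and 0.955 CPM (2.05 ± 0.71, adjusted p = 0.172 and 0.0245 in those fits), with 47.5 and 41.1 CPM in SETDB1 GKD. All 3 were thus at their highest in SETDB1 GKD, and wde GKD lay between SETDB1 GKD and Nup154 GKD.

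RpS19b, another ribosomal protein copy, had the opposite sign. It was at 15.1 and 14.7 CPM in wde GKD and at 29.9 and 26.7 CPM in Nup154 GKD (-0.93 ± 0.40, adjusted p = 0.257 with 12 libraries and 0.0333 with the 6 knockdown libraries). SETDB1 GKD held 61.8 and 55.2 CPM of it and the NGVP16 controls 3.98 and 2.84 CPM. The wde GKD libraries were below both Nup154 GKD libraries for RpS19b and above both for the other 4 copies described. Over the 19 genes of the list, 10 had a log2 fold change above 0 and 8 below 0. The sets did not overlap for 5 that were higher in wde GKD and 5 that were lower, while over all genes these shares were 28.5% and 35.8%.

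Regulators of the germ cell program differed from one another. SkpC, a gene of the Skp1 family, rose, with 8.64 and 14.8 CPM in wde GKD against 1.97 and 1.03 CPM in Nup154 GKD (2.95 ± 0.51, adjusted p = 0.0266), and it was at 73.8 and 58.3 CPM in SETDB1 GKD. bgcn, the partner of bam in cystoblast differentiation, was at 11.5 and 13.3 CPM against 4.27 and 4.38 CPM (1.51 ± 0.44, adjusted p = 0.121, and 0.0186 with the 6 knockdown libraries). bam itself was at 1.97 and 7.60 CPM against 8.61 and 9.39 CPM (-0.91 ± 0.55, adjusted p = 0.429). blanks, a double-stranded RNA binding protein of the male germ line, was at 30.2 and 8.58 CPM against 4.02 and 4.14 CPM (2.25 ± 0.82, adjusted p = 0.204), and its wde GKD libraries differed by more than 3 times. Phf7, a regulator of male germ cell identity, was at 23.3 and 26.5 CPM against 24.7 and 31.9 CPM (-0.19 ± 0.33, adjusted p = 0.826), with overlapping sets, and reached 101 and 76.9 CPM in SETDB1 GKD. Of the 30 germ cell and early oogenesis genes 1 passed the test (3.33%, against 1.67% of all genes), pgc. The product of pgc blocks transcription in the cells that found the germ line, and its mRNA is maternal. It fell, with 1.52 ± 0.395 CPM in wde GKD (SD, n = 2), 13.8 and 8.12 CPM in Nup154 GKD and 146 and 74.4 CPM in the NGVP16 controls (-2.84 ± 0.53, adjusted p = 0.0286).

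**Figure D3:**
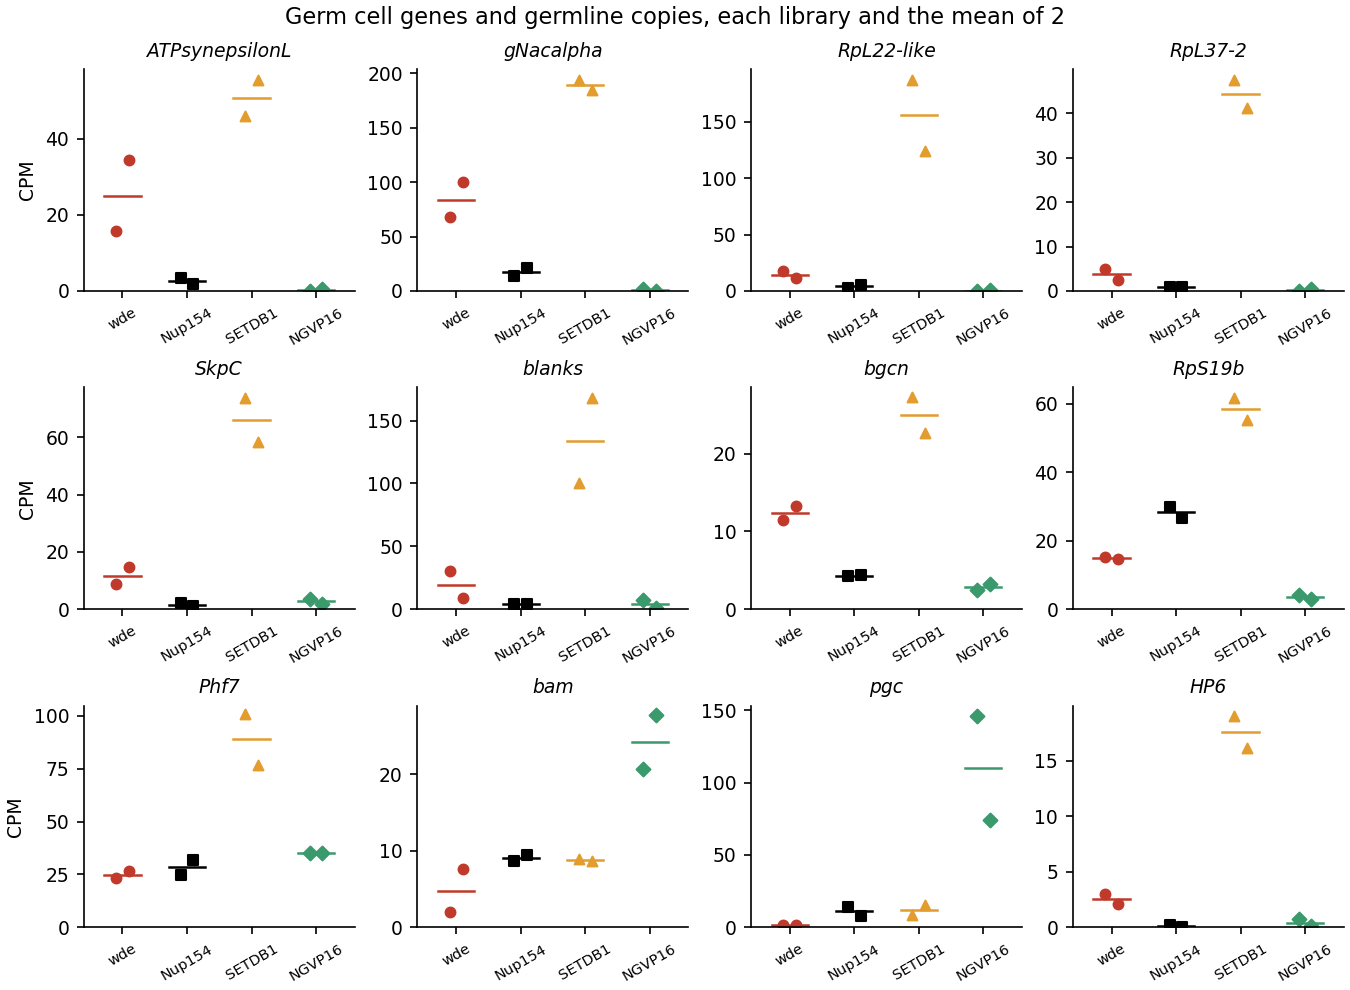
Level in CPM of 12 germ cell genes and germline copies in each library of wde GKD, Nup154 GKD, SETDB1 GKD and the NGVP16 controls, with points for libraries, lines for the mean of 2 and an axis from 0 in every panel. ATPsynepsilonL, gNacalpha, RpL22-like, RpL37-2 and SkpC are higher in wde GKD than in Nup154 GKD and highest in SETDB1 GKD, whereas RpS19b is lower in wde GKD than in Nup154 GKD.

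Genes that were lower in wde GKD mostly had replicates within 2-fold of each other on the CPM + 1 scale. In 5 of the 72 the wde GKD libraries differed by more than 2-fold on that scale, and in 2 the Nup154 GKD libraries did. The scale hides spread at low levels, and each wde GKD library held 22 of the 72 under 1 CPM. The test also favours genes with little spread. stol, which encodes a calcium channel auxiliary subunit (FBgn0028863, chromosome arm 2L, 15644183 to 15718272, minus strand, dm6), was at 19.3 and 16.5 CPM in wde GKD and at 152 and 166 CPM in Nup154 GKD (-3.15 ± 0.30, adjusted p = 0.00434). Nox, an NADPH oxidase that makes superoxide, was at 25.6 and 30 CPM against 203 and 185 CPM (-2.80 ± 0.32, adjusted p = 0.00434). mfas, a fasciclin-domain adhesion protein (FBgn0260745, chromosome arm 3R, 11984862 to 11993315, minus strand, dm6), was at 350 and 410 CPM against 1930 and 1800 CPM (-2.29 ± 0.40, adjusted p = 0.0245). It was the most abundant of the 15 largest falls. These 3 were also lower in SETDB1 GKD and in the NGVP16 controls than in Nup154 GKD: SETDB1 GKD held 47.3 and 39.1 CPM of stol, 17.2 and 9.61 CPM of Nox and 417 and 353 CPM of mfas, and the NGVP16 controls held 0.514 and 0.25 CPM, 2.31 and 2.25 CPM, and 52.7 and 83.4 CPM. The shallow adult controls held 498 and 618 CPM at Nox, but only 0 and 3.94 CPM of the ribosomal protein gene RpL4. Nup154 GKD held 3460 and 3350 CPM of RpL4. Identifiers missing from the annotation held 0.652% and 0.631% of the adult control counts, against 5.95% to 6.35% in the 4 libraries compared. Levels in the adult controls are thus not comparable with the other sets. The exons of Nox overlap a gene on the other strand, and whether the adult control counts at Nox come from its transcript was not tested.

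The other 12 of the 15 largest falls, which include Def, pgc and Cp36, were genes of varied roles. sas, a cell surface protein and receptor ligand, was at 6.76 and 4.60 CPM against 48.8 and 46.6 CPM (-3.07 ± 0.50, adjusted p = 0.0219). nAChRalpha3, an acetylcholine receptor subunit, was at 2.22 and 1.41 CPM against 13.5 and 12.4 CPM (-2.82 ± 0.34, adjusted p = 0.00434). The Nup154 GKD libraries were alike for both, and the wde GKD libraries lay far below them. The receptor tyrosine kinase gene sev was at 24.5 and 57.1 CPM against 160 and 141 CPM (-1.88 ± 0.40, adjusted p = 0.0429). The spindle orientation gene insc was at 19.2 and 34.8 CPM against 116 and 103 CPM (-2.02 ± 0.34, adjusted p = 0.0234). The protein kinase gene sff, yellow-d of the yellow family, the UDP-glycosyltransferase gene Ugt36E1, the peptide transporter gene yin and the cell death gene Corp completed the 15 largest falls, with log2 fold changes of -3.53, -2.46, -2.31, -2.42 and -1.94. yin was at 221 and 286 CPM in the NGVP16 controls, above Nup154 GKD with 104 and 110 CPM, and wde GKD with 15.7 and 24.3 CPM stood close to SETDB1 GKD with 17 and 17.2 CPM. Smaller falls were seen in the septate junction gene Lac (-1.29 ± 0.27), the semaphorin gene Sema1b (-1.43 ± 0.28) and the growth factor gene Pvf1 (-1.23 ± 0.24). The serpin genes Spn88Ea and Spn27A, inhibitors of serine proteases, fell by 1.84 and 1.52 on the log2 scale. Lac, Sema1b, Pvf1, both serpins, CCHa2, Cyp4e2, Cyp313b1, BomBc2, bgcn and SkpC were named after their values were seen.

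Among heat shock genes, whose products refold proteins, the changes that passed the test were falls. Of 20 tested, 2 fell (10%, against 0.667% of all genes) and none rose. A log2 fold change below 0 was seen in 17, against 5624 of all 10790 genes, and the list's median was -0.82. Hsp68, a chaperone of the Hsp70 family, was at 290 and 285 CPM in wde GKD and at 905 and 920 CPM in Nup154 GKD (-1.67 ± 0.30, adjusted p = 0.0294), and at 13.4 and 14.5 CPM in the NGVP16 controls. Hsp67Bc, a small heat shock protein, was at 32.9 and 26.6 CPM against 112 and 105 CPM (-1.86 ± 0.39, adjusted p = 0.0486). The Hsp70 copies are nearly identical, so their reads cannot be assigned with confidence. Neither the Hsp68 nor the Hsp67Bc call was made without any 1 of the 4 libraries. Without the adult pair, with DESeq2 size factors or with upper quartile scaling, the list held 1 fall.

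Of 31 eggshell genes tested, 3 fell (9.68%, against 0.667% of all genes) and none rose, with a median log2 fold change of -1.05. Cp36, a chorion protein of the outer shell (FBgn0000359, chromosome X, 8479319 to 8480523, plus strand, dm6), was at 0.257 and 0.707 CPM in wde GKD, 21.7 and 12.5 CPM in Nup154 GKD and 601 and 127 CPM in the NGVP16 controls (-5.12 ± 0.89, adjusted p = 0.0245). Cp7Fb, a chorion gene 3248 bases before it, was at 1.2 and 1.68 CPM against 9.43 and 8.12 CPM (-2.60 ± 0.56, adjusted p = 0.0474). The third has only an annotation number. For the vitelline membrane genes Vm26Aa and Vm34Ca, of the inner shell and named after their values were seen, the wde GKD replicates lay on either side of Nup154 GKD. Vm26Aa was at 21.1 CPM in wde GKD 1 and 549 CPM in wde GKD 2, against 81.7 and 67.8 CPM in Nup154 GKD. Vm34Ca was at 7.70 and 342 CPM against 65.5 and 73.6 CPM, and neither gene passed the test (adjusted p = 0.388 and 0.643). The list's median was -0.58 without wde GKD 1 and -3.05 without wde GKD 2, and no eggshell call was made without any 1 of the 4 libraries. Without the adult pair 1 of the 3 calls was made. The oocyte mRNA osk showed the same order, with 81.5 and 290 CPM in wde GKD around 162 and 152 CPM in Nup154 GKD. Of 41 oocyte and maternal mRNAs 1 fell (pgc), and 35 had a log2 fold change below 0, with a median of -0.34. Over all genes 5624 of 10790 were below 0.

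The wde GKD libraries thus differed in which other RNAs they held. wde GKD 1 was above wde GKD 2 for 41 of 49 gut and digestive enzyme genes, with summed levels of 3230 and 750 CPM, and the Nup154 GKD libraries held 889 and 910 CPM. The median log2 fold change of those 49 genes was 3.34, with 41 above 0, against 5021 of all 10790 genes. edgeR called none of the 49, DESeq2 called 2 higher, and 7 had an unadjusted p under 0.05. wde GKD 2 held more of the eggshell genes, with 1960 CPM in all against 271 CPM in wde GKD 1 and 942 and 826 CPM in Nup154 GKD. It also held more of Yp2, with 2900 CPM against 805 CPM, and 964 and 932 CPM in Nup154 GKD. The part of gut tissue or of egg chamber stage in the fold changes was not tested.

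**Figure D4:**
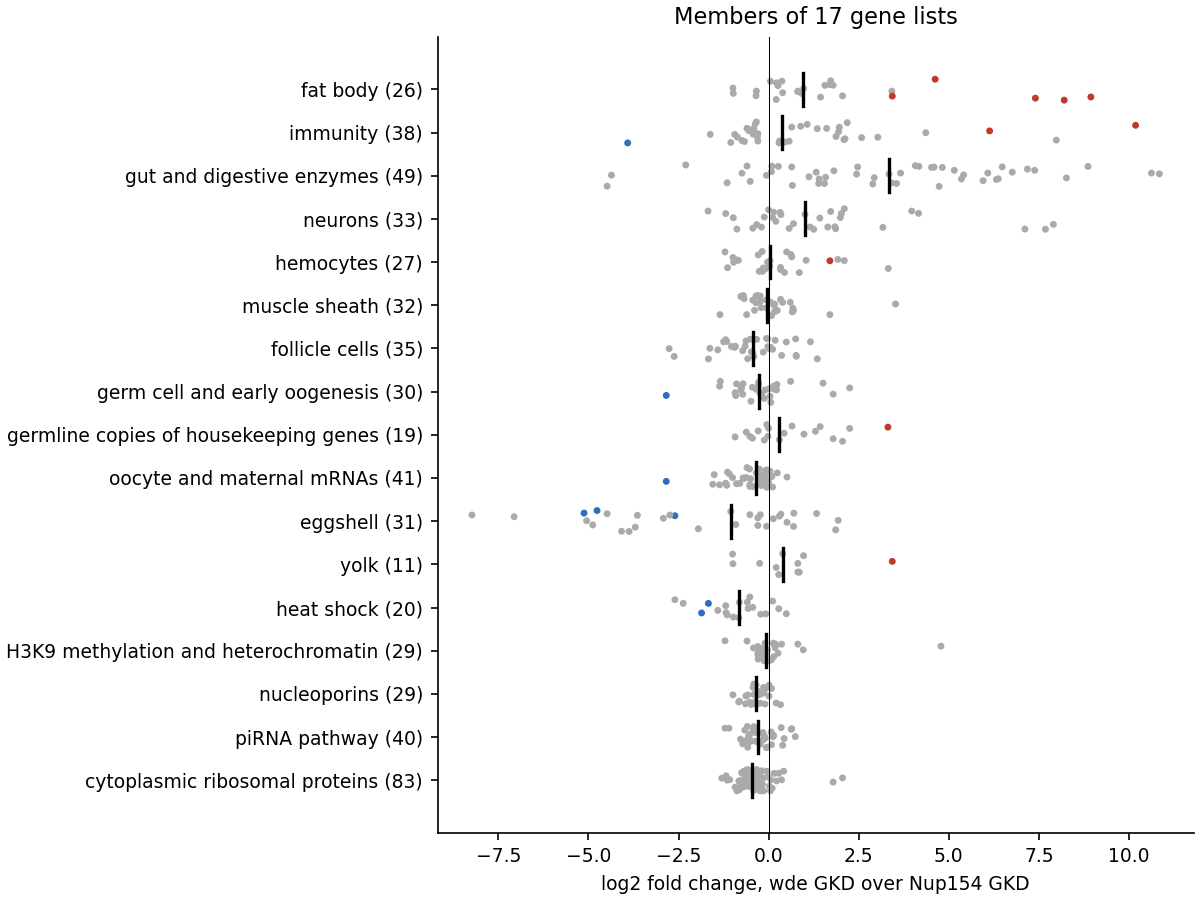
Log2 fold change of wde GKD over Nup154 GKD for each tested member (point) of 17 gene lists, with the list's median as a black bar, the number tested in brackets, genes called higher in red, genes called lower in blue and the rest grey; points are spread vertically for legibility. Fat body members lie to the right with 5 calls, eggshell and heat shock members to the left with 3 and 2 calls, and nucleoporin members, from -0.99 to 0.33, and H3K9 members, from -1.21 to 4.78, have no call.

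Nucleoporin genes, which build the pore that the control knockdown disturbs, mostly had log2 fold changes just below 0, and no member passed the test. Of 29 tested, edgeR and DESeq2 each called 0, and 3 had an unadjusted p under 0.05. Log2 fold changes ran from -0.99 to 0.33 with a median of -0.34, and 24 were below 0, against 5624 of all 10790 genes. With ribosomal protein genes as the scale, the median of all genes was 0.40 and that of this list 0.12, so the list stayed below the rest while its sign turned. Nup205, of the inner ring, was at 63.5 and 80.4 CPM in wde GKD and at 137 and 149 CPM in Nup154 GKD (-0.99 ± 0.32, adjusted p = 0.154, and 0.025 with the 6 knockdown libraries). Elys, which seeds pores on chromatin, was at 51.1 and 45.2 CPM against 89.9 and 81.4 CPM (-0.83 ± 0.33, adjusted p = 0.222 and 0.0332). In both genes the Nup154 GKD libraries were higher, with no overlap, as in 18 of the 29 and in 35.8% of all genes.

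Of 29 genes of H3K9 methylation and heterochromatin tested, edgeR called 0, DESeq2 called 1 higher and 1 lower, and 2 had an unadjusted p under 0.05. The median log2 fold change was -0.07. HP6, of the HP1 family, was at 2.99 and 2.12 CPM in wde GKD and at 0.164 and 0 CPM in Nup154 GKD (4.78 ± 1.18, adjusted p = 0.0803 and, with the 6 knockdown libraries, 0.0211), against 19.0 and 16.1 CPM in SETDB1 GKD. rhi, the HP1 relative that marks piRNA clusters, was at 4.62 and 5.30 CPM against 12.3 and 10.7 CPM (-1.21 ± 0.32, adjusted p = 0.0947 and 0.0511). The HP1a gene, whose product binds H3K9me3, was at 155 and 178 CPM against 144 and 134 CPM (0.26 ± 0.32, adjusted p = 0.735). Of 90 genes tested on chromosome 4, the small chromosome rich in heterochromatin, 1 rose (1.11%) and none fell. That share was near the 1% of all genes that rose. The gene was apolpp, and its call was not made without the adult pair. A log2 fold change above 0 was seen in 69 of the 90, against 5021 of all 10790 genes, with a median of 0.30.

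Markers of other cell types gave few calls, and over all genes 1% were called higher and 0.667% lower. Muscle sheath genes had a median log2 fold change of -0.05 over 32 tested, with summed levels of 27800 and 26900 CPM in wde GKD and 29500 and 28700 CPM in Nup154 GKD. edgeR called none, DESeq2 called 1 lower, and 2 had an unadjusted p under 0.05. Of 27 hemocyte genes 1 rose, NimC1, a phagocytosis receptor of blood cells, with 170 and 140 CPM against 45.1 and 50.1 CPM (1.70 ± 0.28, adjusted p = 0.0219). The hemocyte markers Hml, at 663 and 350 CPM against 573 and 552 CPM, and Pxn, at 1040 and 1170 CPM against 2250 and 2140 CPM, did not pass (adjusted p = 0.927 and 0.248). The hemocyte list summed to 14900 and 10200 CPM against 13100 and 12500 CPM. Neuron genes had a median of 1.01 over 33 tested, with 0 calls by edgeR, 5 higher and 1 lower by DESeq2, and 10 with an unadjusted p under 0.05. Their summed levels of 2340 and 2180 CPM in wde GKD and 2310 and 2280 CPM in Nup154 GKD did not separate the sets. Follicle cell genes had a median of -0.44 over 35 tested, with 0 calls by edgeR, 4 lower by DESeq2, and 12 with an unadjusted p under 0.05.

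Cytoplasmic ribosomal protein genes summed to 68500 and 87800 CPM in wde GKD and to 107000 CPM in each Nup154 GKD library. Their median log2 fold change was -0.46 over 83 tested, with 72 below 0, against 5624 of all 10790 genes. The sets did not overlap for 63 that were lower in wde GKD, which held for 35.8% of all genes. edgeR called none of the 83, DESeq2 called 2 higher, and 8 had an unadjusted p under 0.05. Across 7153 genes at 10 CPM or more, the fold change fell with exon length (Spearman's rho = -0.216 across genes, which are not independent replicates). The same measure was 0.115 for wde GKD 1 over wde GKD 2 and 0.0434 for Nup154 GKD 1 over Nup154 GKD 2. With libraries scaled to these genes, the medians of the follicle cell, oocyte, muscle sheath and H3K9 lists also came to lie above 0, at 0.01, 0.07, 0.42 and 0.41, while the heat shock and eggshell medians were -0.31 and -0.69 and the fat body median was 1.41.

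The SETDB1 knockdown and the NGVP16 controls share no library with this comparison, so the 180 genes can be looked up there. In that contrast 12.7% of all genes were called higher in SETDB1 GKD and 9.91% lower. Its NGVP16 controls were the least alike replicates of the series, with 258000 and 93900 CPM of ribosomal protein genes. Of the 108 genes higher in wde GKD, 31 were called higher in SETDB1 GKD (28.7%) and 9 lower (8.33%). Of the 72 genes lower in wde GKD, 29 were called higher (40.3%) and 16 lower (22.2%). Genes called higher in SETDB1 GKD were thus more frequent than over all genes in both directions of the wde comparison, and genes called lower were more frequent among the falls. Both contrasts come from the same fit and share its estimate of spread for each gene. A gene called in the wde comparison is therefore more readily called in the other contrast too, and all genes tested are not a matched background. ATPsynepsilonL, SkpC and apolpp are among the genes higher in both contrasts, with SETDB1 GKD over NGVP16 log2 fold changes of 7.65, 4.62 and 3.24. stol, Hsp68 and mfas were lower in wde GKD than in Nup154 GKD and higher in SETDB1 GKD than in the NGVP16 controls, by 6.86, 4.41 and 2.50. pgc, Cp36 and Cp7Fb were lower in both contrasts. Without SETDB1 GKD 1 the share of 28.7% became 12.5%, against 7.59% of all genes, and with the virgin controls in place of the NGVP16 pair it was 76.9%, against 19.7% of all genes.

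**Figure D5:**
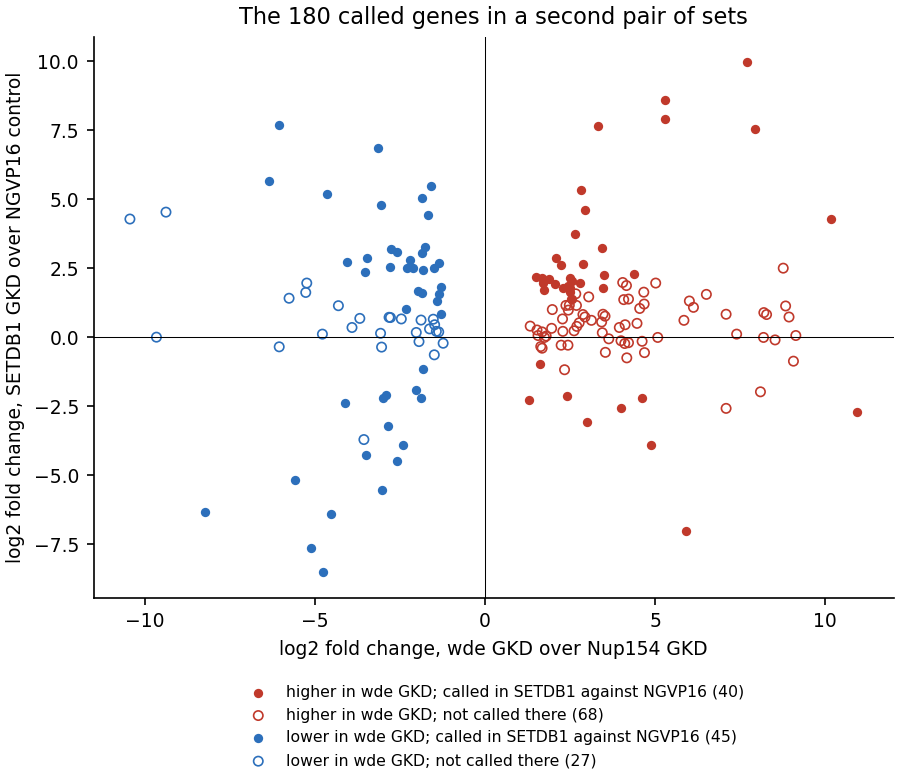
Log2 fold change of SETDB1 GKD over the NGVP16 controls (vertical) against that of wde GKD over Nup154 GKD (horizontal) for the 180 called genes, red for the 108 higher and blue for the 72 lower in wde GKD, filled where the gene was also called in the vertical contrast (40 and 45 genes). Filled blue points lie both above and below 0, with 29 higher and 16 lower in SETDB1 GKD.

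The called genes, chosen for differing between wde GKD and Nup154 GKD, were also read in the other sets. For the 108 genes that were higher, the median level was 52.9 and 35.0 CPM in wde GKD, 3.81 and 4.46 CPM in Nup154 GKD, 24.7 and 20.9 CPM in SETDB1 GKD and 9.82 and 8.51 CPM in the NGVP16 controls. It was 1.2 and 2.31 CPM in the virgin controls, where 52 and 39 of the 108 were under 1 CPM, against 32 in each Nup154 GKD library. The Nup154 GKD libraries held 14 and 15 of these genes at 0 counts, and wde GKD held none at 0. For the 72 genes that were lower, the median was 8.84 and 7.07 CPM in wde GKD, 54.2 and 60.8 CPM in Nup154 GKD, 14.5 and 14.1 CPM in SETDB1 GKD and 8.99 and 9.38 CPM in the NGVP16 controls. In the virgin controls it was 10.7 and 12.1 CPM.

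By chromosome arm, 31 of 1897 genes tested on 2L were higher (1.63%) and 8 lower (0.422%). On 2R these were 15 of 2148 (0.698%) and 20 (0.931%), on 3L 15 of 2017 (0.744%) and 9 (0.446%), on 3R 24 of 2572 (0.933%) and 17 (0.661%), and on X 20 of 1840 (1.09%) and 15 (0.815%). Arm 2L thus held the highest share of rises and the lowest share of falls of these 5, a difference that was not tested. The exons of 25 of the 108 and 24 of the 72 overlap a gene on the other strand, and the strand setting of the counts is not given, so reads of the partners may be mixed. This touches Obp99c, lectin-28C, BomBc2, apolpp, pgc, Nox, sas, nAChRalpha3, yin, Ugt36E1, sev, Hsp68 and Spn88Ea, and Fbp2 and insc overlap a gene on their own strand.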

How the data were processed

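The series holds 12 libraries in 6 sets of 2, grouped by genotype label and title. The deposited files hold whole-number counts per FlyBase gene identifier. HISAT2 2.1.0 and featureCounts 1.4.6 are listed in the submitters' processing notes, as are dm6 and DESeq2 1.24.0. The sources used here give no role for them, no annotation release and no strand setting, and the kit was directional per the labels' protocols. Symbols and positions come from the Ensembl release 115 annotation of BDGP6, the assembly of dm6, which names 16647 of 17023 identifiers. The other 376 hold 5.95% to 6.35% of the counts of the 4 libraries compared.

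Genes were filtered with filterByExpr (10790 kept), scaled by TMM and fitted with edgeR 4.0.16 in R 4.3.3 (glmQLFit, robust, and glmQLFTest). Each of the 6 sets had 1 mean, which leaves 6 residual degrees of freedom. Unless another fit is named, adjusted p-values come from it, by Benjamini-Hochberg over all genes tested. The SE is the absolute log2 fold change over the square root of F, and is approximate near 0 counts. The code was tested on simulated data. Counts of 0 over a set were set to a floor of 3 counts, which covers counting error only.

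The comparison and its gene lists were chosen with earlier results of these data known. Of 1043 listed symbols 68 had no match. The text names egg, wde, Nup154, RpS19b, RpL22-like, gNacalpha, blanks, Phf7 and bam. It adds the 15 largest rises and falls among called genes whose higher set averaged 10 CPM or more and whose sets did not overlap, up to 4 called members of each list, and members of the nucleoporin and H3K9 lists. Genes with only an annotation number and noncoding RNAs were left out. Other members given in the text were named after their values were seen. Alternatives changed the scaling, the filter, the tool (DESeq2 1.42.0), the libraries, a replicate block and a 2-fold limit. No sequence is shown, since the annotation used holds none.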

Additional observations from a re-analysis of the deposited data

How the results depend on the processing

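Counts of genes higher and lower in wde GKD were 108 and 72 as reported. They were 118 and 53 with DESeq2 size factors, 114 and 57 with upper quartile scaling, 128 and 88 with a filter of 1 CPM, and 94 and 55 without the adult pair. Settings that moved either count by over 1.5 times were scaling to ribosomal protein genes (10 and 3), removal of the length trend (222 and 242), no filter (198 and 129), DESeq2 (569 and 330), a fit of the 4 libraries (1030 and 892), a fit of the 6 knockdown libraries (463 and 544) and a 2-fold limit (26 and 13). Over all genes the median log2 fold change moved from -0.04 to 0.07 with DESeq2 size factors and to 0.40 with ribosomal protein scaling. Leaving out 1 library gave 0 to 361 genes higher and 0 to 467 lower. The cause was not tested. Leaving out NGVP16 control or SETDB1 GKD libraries, and the virgin controls as the other reference, were chosen after seeing the data. With the replicate number as a block in 8 libraries the counts were 25 and 13. The numbers share no stated batch, and deviations of same-numbered wde GKD and Nup154 GKD libraries correlated at 0.0078 over 6207 genes, so the block is no paired analysis. Over 85 named genes and 20 settings no called fold change turned its sign; of 1700 values 1342 kept their side of the threshold, 236 lost the call and 122 gained it. Of the genes higher in wde GKD, the share called higher in SETDB1 GKD against NGVP16 was 12% with the block (9.4% of all genes), 7.69% with the 2-fold limit (6.08%), 76.9% with the virgin controls (19.7%) and 12.5% to 29.2% with 1 library left out. The share called lower was 0% with ribosomal protein scaling, 14.4% without the length trend and 5% to 14.3% with 1 library left out. Of the genes lower in wde GKD, the share called higher was 66.7% with ribosomal protein scaling, over only 3 genes (6.83% of all genes), and 32.8% to 60%, the last over 5 genes, with 1 library left out, and the share called lower was 0% to 25.9% with 1 library left out. No share could be formed without a Nup154 GKD library, and the fits of 4 or 6 libraries hold no NGVP16 control. At these depths, genes at a few counts are limited by counting error.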
